A study of Mus musculus with 7 samples.

Results

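Kupffer-like macrophages are described here as 81 of 62304 droplet barcodes from 7 mouse liver tumour samples. They were chosen by their own transcripts: at least 3 UMIs (unique molecular identifiers, each standing for 1 captured transcript) of the complement genes C1qa, C1qb and C1qc together, at least 1 UMI of Clec4f, Vsig4 or Timd4, and no UMI of Cd3d, Cd3e or Cd3g. All 62304 barcodes held at least 500 UMIs and 200 genes, with mitochondrial genes under 20% of UMIs. The comparison cells were 2860 other C1q macrophages, which met the C1q and Cd3 conditions but held no UMI of Clec4f, Vsig4 or Timd4. Every mouse had received plasmids for Nras and C-myc by hydrodynamic tail vein injection, a fast high-volume injection that carries DNA into hepatocytes and here starts hepatocellular carcinoma. The 3 control samples had these plasmids only, and the 4 treated samples were also given an expression plasmid for IL-2/CD25. Liver cells were taken 2 weeks later and sequenced as 3′ droplet libraries. The labels name the same tissue and batch for all 7, give no strain, age or sex, and do not say whether samples were separate animals, so p-values measure the spread between these samples.

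Kupffer cells are the resident macrophages of the liver. They sit in the sinusoids, bind bacteria and blood-borne debris, clear aged red cells and recycle their iron, and handle cholesterol through the nuclear receptor LXR-alpha. Clec4f, a galactose-binding lectin, Vsig4, a receptor for complement fragments, and Timd4, a phosphatidylserine receptor, mark them in mice, with Timd4 mostly on cells of embryonic origin. Monocytes that enter an injured or tumour-bearing liver also become C1q macrophages, at first without these markers.

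The 81 cells comprised 18, 7 and 27 in controls 1 to 3 and 8, 9, 7 and 5 in treated samples 1 to 4. Control members ran from 608 to 142585 UMIs per cell with a median of 11306.5, and treated members from 509 to 20418 with a median of 2980. Their mitochondrial share ran from 0 to 6.06% in controls (lower quartile 0.451%, median 1.58%) and from 0 to 19.3% in treated members (lower quartile 0.122%, median 1.47%). No lower limit was set on that share. Barcodes near 0% were counted as cells, and whether they were whole cells was not tested. The whole libraries differed the same way, with median depths of 6253.5 to 8724 UMIs per barcode in controls and 3215 to 4477.5 in treated samples. No member shared its barcode sequence with a passing barcode of another library, although 459 passing barcodes did.

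The gate genes were not evenly found. Vsig4 was detected in 60 members, Clec4f in 42 and Timd4 in 13. A single gate gene was present in 54 members, of which 34 had Vsig4, 17 Clec4f and 3 Timd4, and 7 members held all 3 genes. Just inside the threshold, 28 members had 1 UMI of the gate genes, 22 of them from controls and 6 from treated samples. Among control members the gate UMIs ran from 1 to 18 with a median of 2, and among treated members from 1 to 84 with a median of 6. For comparison, over both groups T cells without C1q carried a gate UMI in 0.149% of barcodes (median depth 4347 UMIs), neutrophils in 0.182% and B cells in 0.272%. In controls alone the shares were 0.291% of T cells (2 of 687, median depth 4891), 0.181% of neutrophils and 0.541% of B cells (4 of 740, median depth 2099.5). C1q macrophages carried one in 1.88% of control barcodes (median depth 14830) and 17.1% of treated barcodes (median depth 6762). Just outside the gate, 30 barcodes had a gate UMI with only 1 or 2 C1q UMIs.

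Cd5l, a secreted scavenger protein made by Kupffer cells that took no part in the choice, served to check the name. It was found in 53 of the 81 members. By number of gate UMIs it was found in 43 of 53 members with 2 or more and in 10 of 28 with 1, and it was found in 26 of 27 members with 2 or more gate genes. It was found in 27 of 29 treated members and in 26 of 52 control members. The control members with a single gate UMI held it in 5 of 22 cells, whereas the 6 such treated members held it in 5. Other C1q macrophages held it in 2.28% of control and 12.8% of treated cells, and T cells in 0.290%. The 26 control members without Cd5l carried Slc40a1, of the iron handling list, and Clec1b, of the identity list. At 500 UMIs per cell Slc40a1 was in 7.41% and Clec1b in 8.93% of them, against 0.496% and 0.605% of other C1q macrophages in controls. Hpgd and C6, also of the identity list, were in 1.25 and 1.92%, against 0.118 and 0.00880%. These 2 shares rest on few transcripts: 5 Hpgd UMIs in 2 of the 26 members and 1 C6 UMI in 1 of them.

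**Figure D1:**
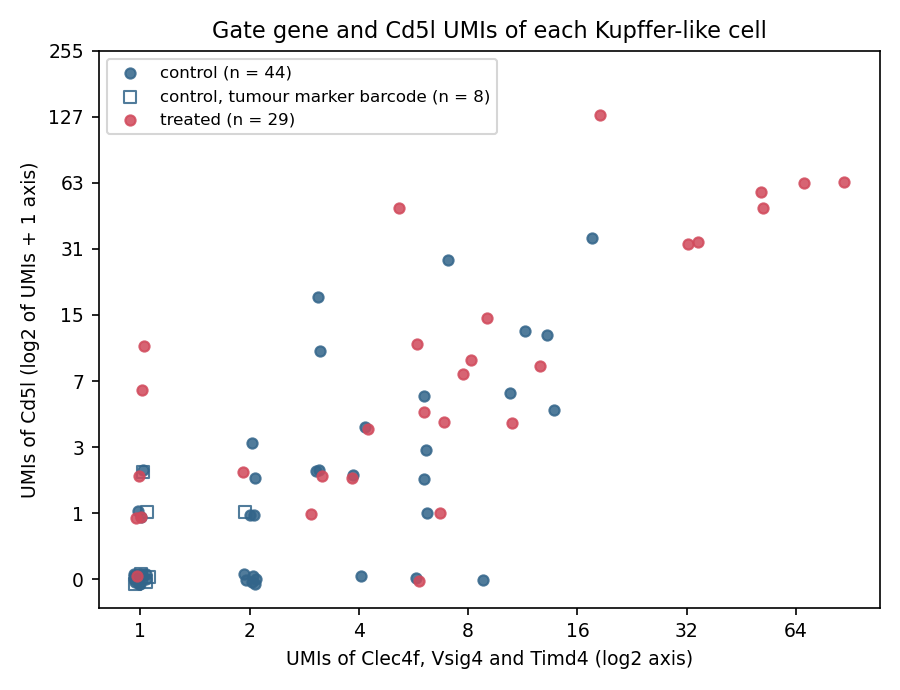
Each point is 1 Kupffer-like cell, with summed UMIs of Clec4f, Vsig4 and Timd4 on a log2 axis against Cd5l UMIs on an axis of log2 of UMIs + 1; points are shifted slightly so that they do not cover each other. Control cells are blue, treated cells red and the 8 tumour marker barcodes open squares; most cells at 1 gate UMI and 0 Cd5l UMIs are control cells.

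Of the members 8 barcodes stood apart. All came from controls (2, 1 and 5 in controls 1 to 3), and they held 265 to 2532 UMIs of the tumour marker list (Krt18, Krt8, Krt19, Cdkn2a, Myc, Nras, Afp and Epcam). No other member held more than 29. Of these barcodes 7 had a single gate UMI and 3 had Cd5l. They carried 59.1% of all UMIs of control members, so levels without them are given for the genes and lists that the control values turn on. Barcodes of this kind also made up 596 of the 2719 other C1q macrophages in controls and none of the 141 in treated samples. A doublet score from simulated cell pairs marked 8 control members and no treated member. Single barcodes also carried much of another list: 1183 erythroid UMIs in a cell of treated 2 and 165 platelet UMIs in a cell of control 2, and nearly all stellate and fibroblast UMIs of control 3 came from 1 cell.

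The number of Kupffer-like cells was small in both groups, while the macrophages around them differed greatly in number. They were 0.189, 0.0964 and 0.312% of passing barcodes in the controls and 0.110, 0.102, 0.0671 and 0.0481% in the treated samples. These groups overlapped, with means of 0.199% ± 0.108 (SD, n = 3) and 0.0820% ± 0.0294 (SD, n = 4; exact two-sided permutation test, p = 0.0857, adjusted p = 0.0857 over 2 share tests). The order was not stable. With barcodes under 2000 UMIs left out and the rest thinned to 2000 before gating, the mean was 0.0455% in controls and 0.0507% in treated samples (exact permutation p = 0.943). That changed both the depth and the set of barcodes. It left 3, 1 and 5 Kupffer-like cells in controls 1 to 3 and 3, 6, 4 and 4 in treated samples 1 to 4. Other C1q macrophages were 10.6% ± 1.35 (SD, n = 3) of control and 0.389% ± 0.104 (SD, n = 4) of treated barcodes, 27.1-fold apart.

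As a share of C1q macrophages, Kupffer-like cells made up 1.60, 1.05 and 2.75% in the controls and 17.4, 26.5, 14.0 and 12.5% in the treated samples. Every treated sample lay above every control. The means of 1.80% ± 0.865 (SD, n = 3) and 17.6% ± 6.26 (SD, n = 4) differed 9.77-fold, and the exact two-sided permutation test gave p = 0.0286, the smallest that 3 against 4 samples allow. Adjusted over the 2 share tests this was 0.0571 and did not pass 0.05. With the gate raised to 2 UMIs the means were 1.02% and 14.0%, with the same exact permutation p. Among barcodes of 2000 or more UMIs, each thinned to 2000, they were 0.692% and 14.7%, 21.3-fold apart. With a C1q gate of 10 UMIs they were 2.73% and 19.3%. The exact permutation p was 0.0571 in both of these cases, before adjustment. The number of other C1q macrophages enters this share as its denominator. Exact 95% binomial intervals of single samples, which cover counting error only, ran from 0.425 to 2.16% in control 2 and from 12.9 to 44.4% in treated 2.

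**Figure D2:**
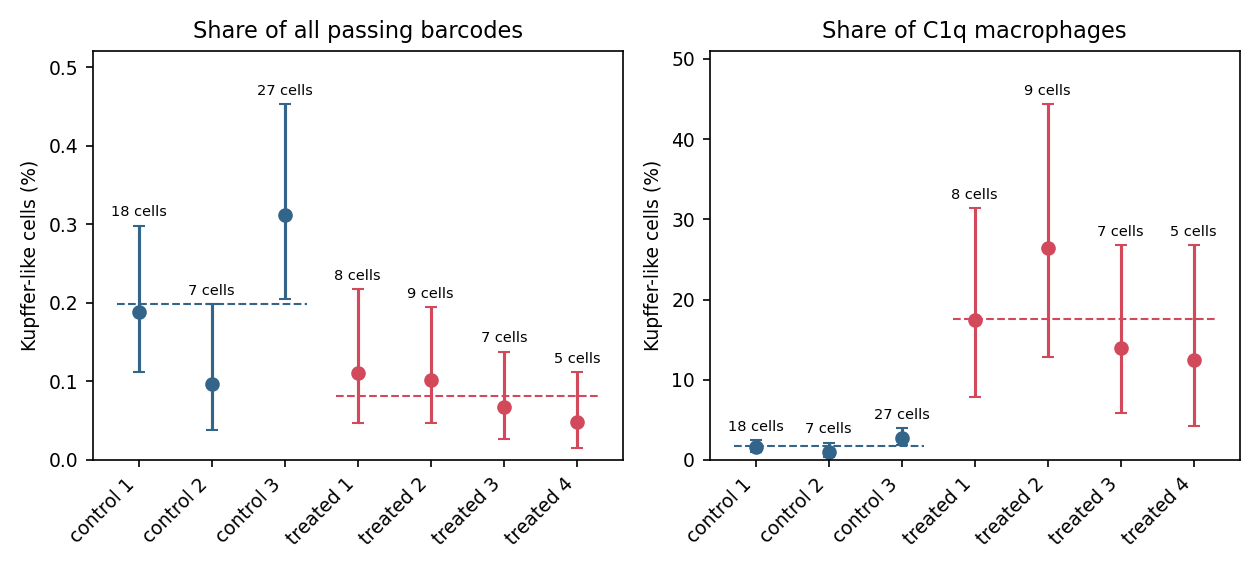
Kupffer-like cells as a percentage of all passing barcodes (left) and of C1q macrophages (right) in each sample, with exact 95% binomial intervals (bars), the number of cells (text) and group means (dashed lines). The groups overlap on the left, and on the right the 4 treated samples, at 12.5 to 26.5%, sit above the 3 controls, at 1.05 to 2.75%.

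The design asks how the plasmid for IL-2/CD25 bears on these cells. A test between the groups was to be made only where samples held 20 or more of them, which 1 of 7 samples did, so the following are levels in each sample with no test. Levels are CPM, each gene's UMIs per 1e+06 UMIs summed over the members of a sample, so deep cells weigh most in them.

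The gate genes, which chose the cells, were themselves at very different levels. The gate took 1 UMI at any depth, and 1 UMI is more CPM in a shallow cell. Treated members were shallower (median 2980 UMIs against 11306.5), so these levels depend in part on the gate and are given as description only. Clec4f (ENSMUSG00000014542) stood at 39.9, 49.7 and 44.6 CPM in control members and at 1559, 1059, 1288 and 1432 CPM in treated members. Vsig4 (ENSMUSG00000044206) stood at 94.2, 64.6 and 111 CPM against 2962, 695, 995 and 1471 CPM. Without the tumour marker barcodes the highest control level was 114 CPM for Clec4f and 280 CPM for Vsig4, still below every treated sample.

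The following genes mark Kupffer cells and took no part in the gate. Each was higher in members of every treated sample than in those of any control. The share of all genes with such a separation is not given, so it is not shown to be particular to these genes. The NK and ILC1 list, described below, separated the groups in the same direction. Cd5l was at 120, 69.6 and 171 CPM in control members (368, 160 and 368 CPM without the tumour marker barcodes) and at 4079, 4044, 2166 and 3058 CPM in treated members. A few deep cells held many of these UMIs. Of 566 in treated members, 131 were in the cell of treated 2 with 1183 erythroid UMIs, and 65 and 61 were in single cells of treated 1. Counted by cell, at 500 UMIs each, Cd5l was in 71.9% of treated and 19.7% of control members. Slc40a1, which encodes ferroportin, the only known iron exporter of the cell, was at 99.9, 74.6 and 69.2 CPM (280, 160 and 148 without those barcodes) against 1663, 2386, 2487 and 2322 CPM. For both genes the treated samples lay far above the controls under either count, and the groups did not overlap. Hpgd, the enzyme that inactivates prostaglandins, was at 5.71, 4.97 and 15.4 CPM in controls and 1039, 442, 702 and 503 CPM in treated members. Without the tumour marker barcodes the highest control was at 34.4 CPM. In other C1q macrophages Hpgd was also higher in treated samples, at 106, 182, 309 and 142 CPM against 1.58, 0.721 and 2.66 CPM in controls. C6, a component of the complement attack complex that mouse Kupffer cells transcribe, was at 2.85, 9.94 and 12.3 CPM (8.76, 22.8 and 27.5 without the tumour marker barcodes) against 286, 126, 410 and 271 CPM, and it was absent from other C1q macrophages of treated samples. Cdh5, a cadherin best known from endothelium that is also transcribed in Kupffer cells, had no UMI in 52 control members, which allows up to 5.77% of cells with a UMI, and was at 260, 332, 87.8 and 387 CPM in treated members. Endothelial list genes stood at 26.0 to 126 CPM in those members, with Tie1 and Bmp2 at 0; in other C1q macrophages of treated samples the list reached 3355 CPM.

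Clec1b, a platelet receptor, was at 57.1, 34.8 and 32.3 CPM in controls (175, 80.0 and 68.9 without those barcodes) and 494, 569, 527 and 658 CPM in treated members. Nr1h3, which encodes LXR-alpha, was at 45.7, 9.94 and 32.3 CPM (140, 22.8 and 65.4 without those barcodes) against 234, 837, 439 and 929 CPM. Neither gene overlapped between groups under either count, and here too the share of all genes without overlap is not given. Other C1q macrophages differed between groups in the same direction. They held Clec1b at 9.48, 8.12 and 2.47 CPM in controls and 67.0, 261, 238 and 124 CPM in treated samples. Nr1h3 was at 7.30, 5.47 and 6.35 CPM and at 86.5, 194, 185 and 201 CPM in them.

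Some other identity genes overlapped between groups or were rare. Marco, a scavenger receptor for bacteria and particles, was at 31.4, 34.8 and 18.4 CPM in controls and 364, 63.2, 468 and 310 CPM in treated members; without the tumour marker barcodes control 1 was at 96.3 CPM and the groups overlapped. Folr2, a folate receptor of resident macrophages, was at 71.3, 24.9 and 41.5 against 312, 221, 351 and 116 CPM, and control 1 was at 219 CPM without those barcodes. Timd4 was seen in 7 of 52 control and 6 of 29 treated members. Ccl24, an eosinophil-attracting chemokine, overlapped between groups with all members counted. It was at 865, 547 and 602 CPM in controls and at 1091, 379, 234 and 77.4 CPM in treated members. Without the tumour marker barcodes the control members summed together held it at 1567 CPM, against 470 CPM in all treated members. At 500 UMIs per cell it was in 45.2% of those control members and 14.8% of treated members, the opposite direction to Cd5l. Lyve1, a hyaluronan receptor on some resident macrophages, had 12 UMIs in 4 control members and none in treated members.

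Arg1, Fn1 and Chil3, genes of monocyte-derived and tumour macrophages, were found in control members and had 1 cell or none with a UMI among the 29 treated members. Arg1, arginase, which depletes arginine, was at 731, 612 and 295 CPM in controls (2215, 1371 and 623 CPM without the tumour marker barcodes) and 0, 47.4, 0 and 0 CPM in treated members. It was seen in 39 of 52 control members and 1 of 29 treated members, and thinned to 500 UMIs per cell in 29.1% and 0.247%. T cells, which should lack it, had it in 1.49% of control barcodes at that depth (10.9% unthinned, median depth 4891 UMIs against 11306.5 in members). Fn1, fibronectin, was at 305, 1034 and 1021 CPM in controls (718, 2342 and 2207 without the tumour marker barcodes) and had no UMI in treated members; 26.5% of the 44 control members outside the tumour marker set held it at 500 UMIs, against 5.75% of control T cells. Chil3, a chitinase-like protein of monocytes and activated macrophages, was at 622, 835 and 856 CPM (1340, 1611 and 1653 without those barcodes) and also had no UMI in treated members. Its thinned share was 25.4% in control members and 16.2% in control T cells, which should lack it. A count of 0 in 29 treated members allows up to 10.3% of cells with a UMI and 18.5 CPM. The list of inflammatory cytokines and NF-kB genes did not follow them: it summed to 619, 3112 and 732 CPM in control members (1427, 6362 and 1281 without the tumour marker barcodes) and to 5067, 4803, 4565 and 1084 CPM in treated members.

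Other C1q macrophages of the same samples carried these genes too. Arg1 was at 539, 673 and 215 CPM in those of controls (1133, 1303 and 1018 without the tumour marker barcodes) and 148, 24.3, 11.3 and 30.9 CPM in those of treated samples. Fn1 was at 1169, 1091 and 585 CPM (2395, 2044 and 2663 without them) against 795, 72.9, 245 and 380 CPM. Treated members were at or near 0 for Fn1 beside neighbours that still held it. The summed 8-gene monocyte list was at 1281, 2655 and 2966 CPM in control members and 58.5 to 390 CPM in treated members. In other C1q macrophages it was at 3194, 3695 and 1743 CPM in controls and 1143 to 2523 CPM in treated samples. Without the tumour marker barcodes the control values were 2916, 5517 and 5523 CPM in members and 5842, 6304 and 6279 CPM in the other macrophages.

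**Figure D3:**
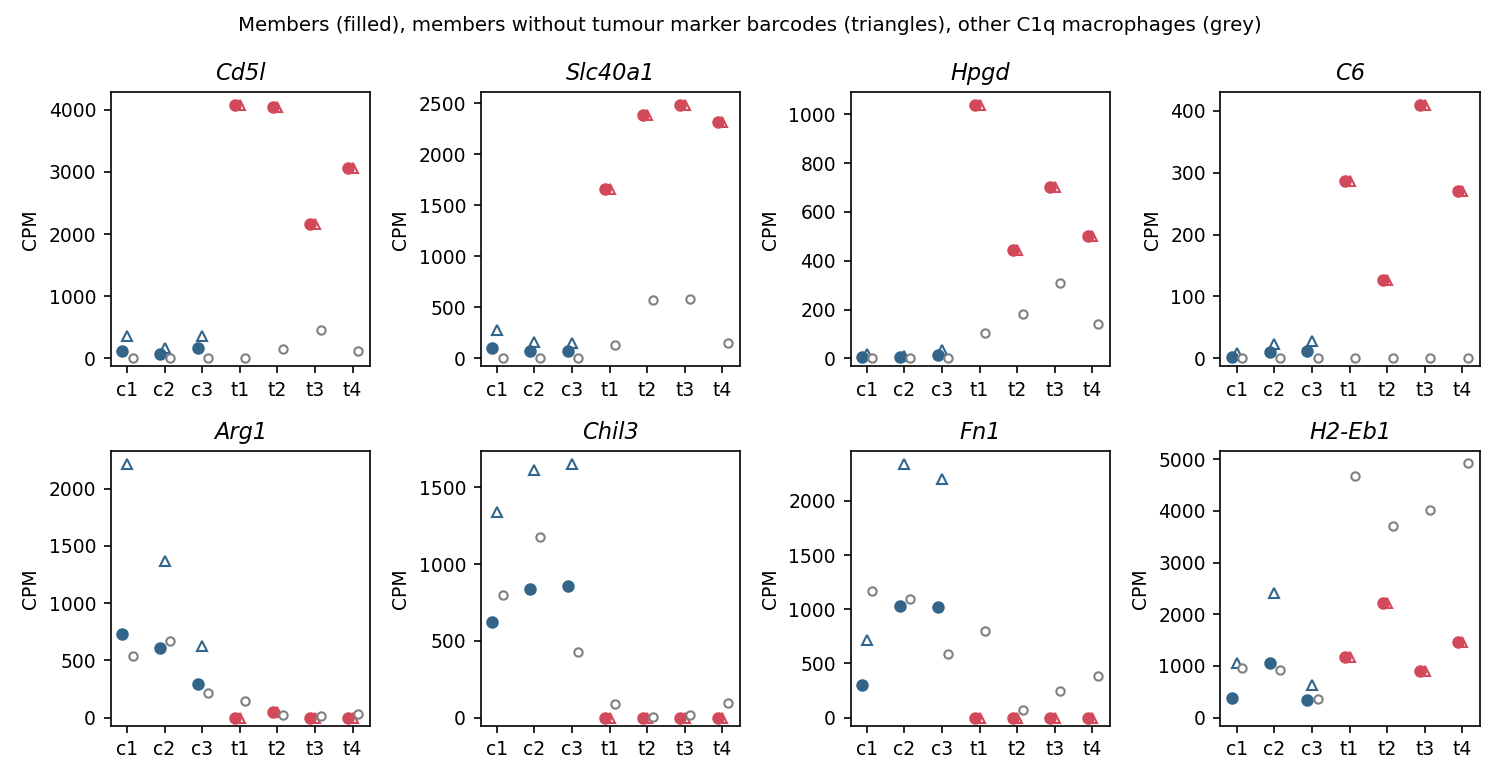
CPM of 8 genes in controls 1 to 3 (c1 to c3, blue) and treated samples 1 to 4 (t1 to t4, red): all Kupffer-like members (filled circles), members without the 8 tumour marker barcodes (triangles, the same as the circles in treated samples) and other C1q macrophages (grey open circles). Cd5l, Slc40a1, Hpgd and C6 are higher in all treated members than in any control, and Arg1, Chil3 and Fn1 are at or near 0 in treated members.

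Within the controls, Arg1 and Fn1 were found in members with and without Cd5l. At 500 UMIs per cell, Arg1 was in 29.3% of the 26 members with a Cd5l UMI and in 28.9% of the 26 without one, against 1.49% of control T cells. Fn1 was in 21.9 and 24.1%, against 5.75% of those T cells. Ccl24, a gene of the identity list, was in 49.2 and 28.5%, against 0.477%. Among the 12 control members with 5 or more gate UMIs (median depth 10719.5 UMIs), 10 held Cd5l, 9 Slc40a1, 11 Ccl24 and 6 Arg1. At 500 UMIs per cell, Cd5l was in 41.6% of these, in 26.3% of those with 2 to 4 gate UMIs and in 4.98% of those with 1, tumour marker barcodes left out. Arg1 was in 8.47, 49.4 and 37.3% of the same 3 sets. Chil3 was in 26.9, 21.0 and 36.4% and Fn1 in 22.3, 23.7 and 33.2%, so neither shared the low value of Arg1 in the first set. The MHC class II gene H2-Aa was in 6.32, 13.3 and 38.9%, against 5.22% of control T cells. Control members with more gate UMIs thus held Cd5l more often and H2-Aa less often, and the members with the most gate UMIs held the least Arg1; these sets were formed from the same cells and were not tested.

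In treated members the same split gave closer values for some genes, also untested. Cd5l at 500 UMIs was in 76.5% of the 18 members with 5 or more gate UMIs and in 64.2% of the 11 with fewer. Slc40a1 was in 62.7 and 46.3%, and Nr1h3 in 25.1 and 37.9%. Hpgd was in 34.5 and 33.9%. The cells with few gate UMIs were also shallow, with a median of 1061 UMIs against 6264.5.

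Lists of other cell types moved with the groups as well, and their part in the levels above was not tested. The NK and ILC1 list, fully detected, was at 14.9 to 146 CPM in control members (22.8 to 186 without the tumour marker barcodes) and 293 to 619 CPM in treated members. The neutrophil list was at 882 to 1324 CPM in controls (885 to 2093 without the tumour marker barcodes) and 208 to 468 CPM in treated members. The tumour list was at 4201 to 9488 CPM in control members, 468 to 764 CPM without the tumour marker barcodes, and 38.7 to 156 CPM in treated members. Hepatocyte genes were at 39.8 to 305 CPM (11.4 to 65.4 without those barcodes) and 26.0 to 351 CPM. T cell genes stayed at 11.4 to 32.3 CPM and 58.5 to 116 CPM, with Cd4 at 0, and B cell genes at 14.9 to 22.8 CPM and 38.7 to 126 CPM, with Pax5 at 0. Dendritic genes were at 29.2 to 64.6 CPM and 52.0 to 146 CPM. Platelet genes were at 149 to 835 CPM and 26.0 to 269 CPM, with Gp9, Gp1bb and Treml1 at 0, and erythroid genes at 4.97 to 44.6 CPM and 0 to 18690 CPM, with Slc4a1 at 0.

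The second question was how Kupffer-like cells differed from other C1q macrophages of the same sample. UMIs were summed per sample and class and tested over all 7 samples with edgeR's quasi-likelihood test and sample as a block, with the genes of the gate left out. Of 4414 genes tested, 56 were higher in Kupffer-like cells (1.27%) and 13 lower (0.295%) at a Benjamini-Hochberg adjusted p under 0.05, and the median log2 difference of all genes was -0.07. The samples held 5 to 27 members each, and without the sample block no gene passed. With the tumour marker barcodes left out of both classes 95 genes were higher and 54 lower, and with a gate of 2 UMIs 141 and 164.

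The gene furthest apart was Cd5l, with a log2 difference of 5.14 ± 0.47 (SE; edgeR adjusted p = 5.61e-08). Other C1q macrophages held it at 1.43, 0.240 and 6.30 CPM in controls and 8.37, 158, 464 and 121 CPM in treated samples, below the members of the same sample in all 7. Apoc1, a small apolipoprotein induced by LXR, differed by 3.31 ± 0.33 (edgeR adjusted p = 2.34e-07). Fcna, ficolin A, a lectin that starts the complement cascade, differed by 3.26 ± 0.36 (edgeR adjusted p = 1.87e-06). Slc40a1 (ENSMUSG00000025993) differed by 3.16 ± 0.26 (edgeR adjusted p = 1.45e-08). Other C1q macrophages carried it at 6.32, 5.89 and 5.72 CPM in controls and at 131, 577, 581 and 148 CPM in treated samples. Igf1, insulin-like growth factor 1, differed by 2.89 ± 0.26 and stood in members at 54.2, 9.94 and 30.7 CPM in controls (166, 22.8 and 65.4 without the tumour marker barcodes) and 857, 743, 878 and 503 CPM in treated samples. Other C1q macrophages held Igf1 at 3.01, 2.04 and 3.13 CPM in controls and 78.2, 164, 143 and 98.9 CPM in treated samples. These 5 genes were higher in members in 7 of 7 samples.

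Further identity and adhesion genes were higher in all 7 samples by smaller margins. Vcam1, an adhesion molecule for lymphocytes, differed by 2.46 on the log2 scale, Spic, the transcription factor of red cell-clearing macrophages, by 2.23 and Clec1b by 2.18. St3gal5, which makes the ganglioside GM3, differed by 2.15, Hpgd by 1.91, Nr1h3 by 1.88 and the integrin Itga9 by 1.87. Ptgs1, cyclooxygenase 1, differed by 1.61, the scavenger receptor Msr1 by 1.53 and the proteoglycan Sdc3 by 1.52. Standard errors of these log2 differences ran from 0.22 to 0.50, and the largest edgeR adjusted p was 0.0150, for Spic. The Spic call was lost without control 1, control 3 or treated 2, each in turn, and with doublets removed (edgeR adjusted p = 0.135), and Spic gave no value with the tumour marker barcodes left out, with a gate of 2 UMIs or without treated 1, 3 or 4. Of the 40 genes that passed and are named here, 12 did not pass with doublets removed: Spic, Ccl24, Hmox1, Slc11a1, Lipa, Cfp, Csf1r, Dab2, Ifi204, H2-Aa, S100a4 and Anxa1. Myc gave no value there.

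**Figure D4:**
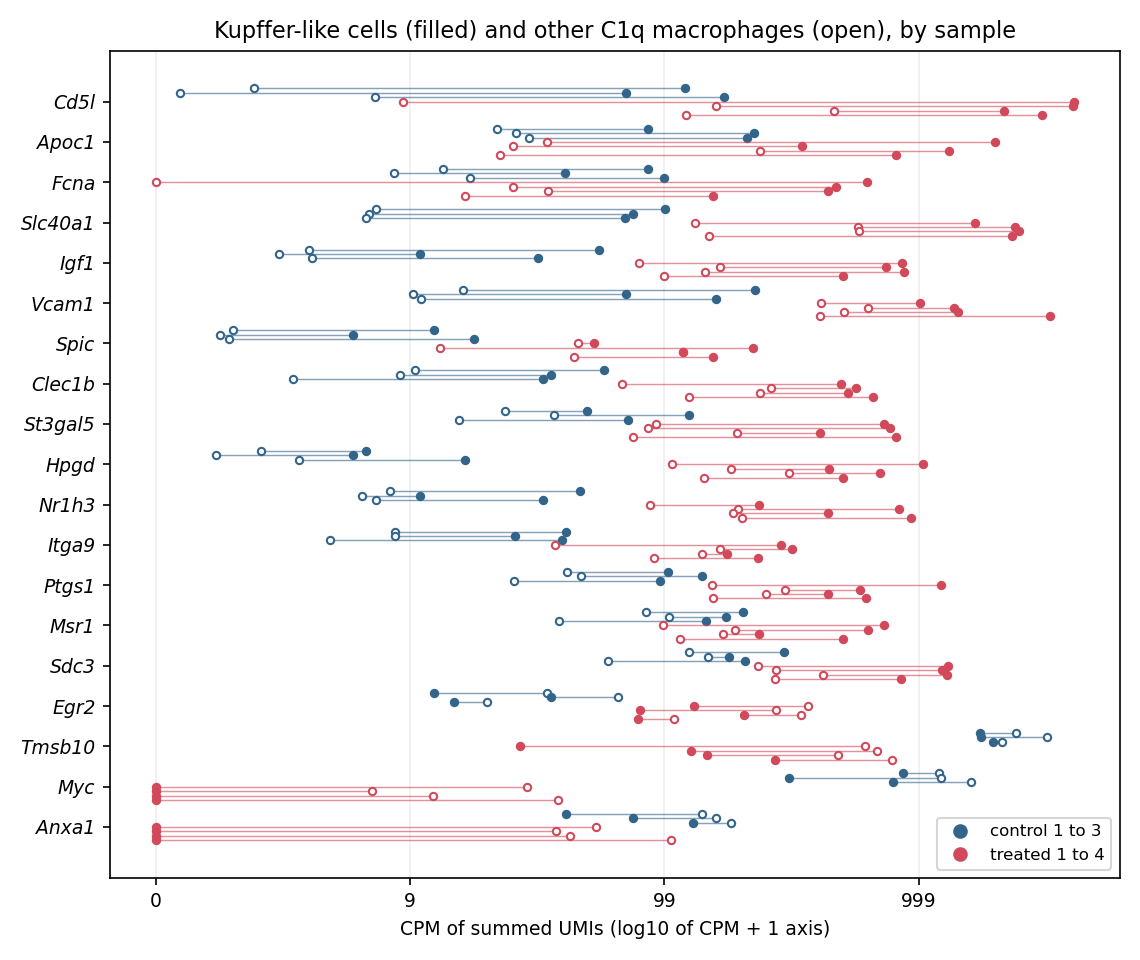
CPM on an axis of log10 of CPM + 1 for the named genes with the same direction in all 7 samples, 15 higher and 4 lower in Kupffer-like cells. Naming stopped at 15 genes, so the 15 are the largest log2 differences and not every gene higher in all 7. Each line joins other C1q macrophages (open) to Kupffer-like cells (filled) of 1 sample, blue for controls and red for treated samples; the filled points lie to the right from Cd5l to Sdc3 and to the left from Egr2 to Anxa1.

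Of the 33 genes on the list of Kupffer identity genes outside the gate, 19 passed the filter on low counts; 11 were higher and 0 lower, with a list median of 1.58. Beside those named above, Il18bp, the soluble antagonist of interleukin 18, differed by 2.57, Ccl24 by 1.58 and Adgre1, the F4/80 antigen, by 1.56, each higher in 6 of 7 samples. The Ccl24 call was lost without control 1, treated 1 or treated 3 and with a C1q gate of 10 UMIs (edgeR adjusted p = 0.0956). Mrc1, the mannose receptor, at 0.81 (edgeR adjusted p = 0.0585) and the receptor tyrosine kinase Axl at 0.33 (edgeR adjusted p = 0.630) did not pass. Marco, Cd163, Folr2, C6 and Cdh5 fell under the filter.

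Iron handling genes had 3 of 14 tested higher and 0 lower, with a list median of 0.48. These were Slc40a1, Hmox1, which splits haem, at 1.23 ± 0.32 (edgeR adjusted p = 0.0477), and Slc11a1, a metal transporter of phagosomes, at 0.93 ± 0.24 (edgeR adjusted p = 0.0476). The Hmox1 call was lost without control 1 or without any 1 treated sample, and the Slc11a1 call without any 1 of the 7. In members Hmox1 was at 223, 174 and 138 CPM in controls (508, 320 and 231 without the tumour marker barcodes) and 364, 1374, 1463 and 1006 CPM in treated samples. Fth1, the ferritin heavy chain, differed by 0.04 ± 0.19.

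Cholesterol and LXR target genes also had 3 of 14 higher and 0 lower, with a median of 0.37: Apoc1, Msr1 and the cholesterol exporter Abca1, at 1.22 ± 0.21 (edgeR adjusted p = 0.000840). Lipid-associated macrophage genes had 3 of 20 higher, all lysosomal enzymes. Ctsb differed by 1.25, Ctsd by 1.24 and Lipa by 0.81. The genes that usually define that state did not pass: Trem2 differed by 0.05 and Spp1 by 0.24. The Lipa call was lost without any 1 sample other than control 2.

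Uptake genes had 1 higher and 1 lower of 13 tested. Mertk, a receptor for dying cells, was higher by 1.35 ± 0.22 (edgeR adjusted p = 0.000545), in 7 of 7 samples. Fcgr2b, the inhibitory Fc receptor, was lower by a log2 difference of -1.64 ± 0.38 (edgeR adjusted p = 0.0190), in 6 of 7, and the call was lost without any 1 treated sample and with the gate of 2 UMIs. In treated samples it was at 104, 47.4, 87.8 and 38.7 CPM in members and 862, 985, 641 and 760 CPM in other C1q macrophages. In controls the members held 217, 179 and 281 CPM and the other macrophages 387, 443 and 155 CPM, which overlap; without the tumour marker barcodes they were at 630, 400 and 575 CPM and at 792, 838 and 704 CPM, with no overlap. Of complement genes 1 of 7 was higher, properdin (Cfp) at 1.11, a call lost without treated 1, 3 or 4. Of colony-stimulating factor genes and receptors 1 of 16 was higher, Csf1r at 0.82, a call lost without control 3 or any 1 treated sample.

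MHC class II genes, which present antigen to helper T cells, had 3 of 10 lower and 0 higher, with a median of -0.77: H2-Eb1 at -1.16 ± 0.25 (edgeR adjusted p = 0.0102), H2-Ab1 at -1.02 ± 0.23 and H2-Aa at -0.87 ± 0.21. In treated samples H2-Eb1 was at 1169, 2212, 907 and 1471 CPM in members and at 4681, 3707, 4013 and 4923 CPM in other C1q macrophages, with no overlap. In controls it was at 374, 1059 and 337 CPM against 965, 914 and 362 CPM, which overlap. Without the tumour marker barcodes the whole class II list was at 10043, 19738 and 8223 CPM in control members. The other control macrophages were then at 18850, 16492 and 15946 CPM, below the members in control 2 only. With those barcodes left out, the 15 control members with 1 gate UMI held H2-Eb1 at 2095 CPM and the 12 with 5 or more at 78.5 CPM. Cd74, the invariant chain, differed by -0.73 (edgeR adjusted p = 0.0794). All 3 calls were lost without treated 1, 3 or 4, and those of H2-Ab1 and H2-Aa also without control 1. The difference between groups in this contrast was not tested, since too few samples held 20 members.

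Monocyte genes had 2 of 19 lower and 0 higher, with a median of -0.51. Ccr2, the receptor that draws monocytes from the marrow, differed by -2.30 ± 0.43 (edgeR adjusted p = 0.00245), lower in 6 of 7 samples. In treated samples it was at 26.0, 63.2, 29.3 and 77.4 CPM in members and 1153, 790, 894 and 1103 CPM in other C1q macrophages. In controls it was at 31.4, 219 and 204 CPM in members and 357, 356 and 147 CPM in the others, which overlap; without the tumour marker barcodes it was at 61.3, 457 and 437 CPM against 744, 686 and 691 CPM. S100a4 differed by -1.40 (edgeR adjusted p = 0.0446), a call that held without control 2 or control 3 and was lost without control 1 or any 1 treated sample. Chil3 (-0.31), Fn1 (-1.37) and Arg1 (-0.04) did not pass. The genes that met the rules for naming and were lower in all 7 samples were Anxa1, a calcium-binding regulator of inflammation (-1.34), Myc (-1.27), the actin-binding Tmsb10 (-1.23) and the transcription factor Egr2 (-1.15). All 4 calls were lost without treated 1 and without treated 3, and each also without at least 1 further sample. Myc is also a gene of the injected plasmids and of the tumour list: members and other macrophages of controls held 308 to 865 and 1201 to 1603 CPM. It fell under the filter once the tumour marker barcodes were left out. Anxa1 was at -0.74 without those barcodes and did not pass (edgeR adjusted p = 0.307).

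Several programmes had few or no called genes; with 5 to 27 members a sample, a gene that missed the threshold is not shown to be at the same level. No gene of 17 interferon gamma response genes, 12 inflammatory genes, 5 proliferation genes and 19 dissociation and stress genes passed edgeR's threshold. At an unadjusted p under 0.05 these lists had 4, 4, 0 and 2 genes, and DESeq2 called 1, 0, 0 and 1. The list medians were 0.06, -0.03, -0.29 and -0.16. Of 6 type I interferon genes Ifi204 was higher, at 0.94. Among the fits with 1 sample left out, its call held only without control 2 or treated 2. Of 9 genes for signals to lymphocytes only Il18bp passed. Alternative activation genes had Igf1 and the endocytic adaptor Dab2 (0.88, lost without control 3, treated 3 or treated 4) higher and the chemokine Ccl17 (-2.68) lower, of 13 tested; the Ccl17 call was lost without any 1 sample other than control 2, where members held 1566 CPM against 12.3 CPM in control 3 and none in treated samples.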

How the data were processed

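The deposited files hold, per sample, a matrix of unnormalised UMI counts per gene and barcode from Cell Ranger 7.0.0, per the file headers, with 55357 features. The submitters' processing notes also name bcl2fastq 5.0.1. No coordinates are given, since the genome build is not given in the sources used here. The authors' barcodes were filtered (500 UMIs, 200 genes, under 20% mitochondrial UMIs), which left 62304, with 7244 to 10439 per sample and 37653600 to 181755269 UMIs per sample before the filter. Members, gene lists and tests were chosen with earlier results of these data known. Doublets were scored against simulated pairs and kept, and removed only in an alternative.

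For shares, group means were compared over all 35 regroupings (exact permutation, two-sided). UMIs summed per sample and class were tested with edgeR 4.0.16 (R 4.3.3; quasi-likelihood, TMM, filterByExpr, sample as block, Benjamini-Hochberg). The fit was planned for samples with 20 or more cells of both classes. Only control 3 had 20 members, so all 7 samples were used, a choice made after cell numbers were known. The planned tests between groups, and of the difference of effects, were not made. The edgeR script was tested on simulated data. Named genes are up to 15 per direction at an adjusted p under 0.05, a mean of at least 20 CPM in the higher class and the same direction in every sample, by size of the log2 difference, leaving out gate, mitochondrial, ribosomal, immunoglobulin and unnamed genes and genes over 20 times higher in other cell types; list members are named as examples, and single genes below the threshold were picked from the lists after their values were seen. Shares of cells with a UMI were computed exactly at 500 UMIs per cell. Alternatives were DESeq2 1.42.0, other scaling, filters, gates and depths, and each sample left out. Counts were summed and plotted in Python 3.11.15 (scikit-learn 1.9.0 for the doublet score, scipy 1.17.1, matplotlib 3.10.9).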

Additional observations from a re-analysis of the deposited data

Results flagged for a closer look

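Among barcodes left out of the description because they held Cd3 UMIs beside 3 or more C1q UMIs, the 13 of treated samples carried 229 UMIs of Clec4f, Vsig4 and Timd4, against 5 in the 5 such barcodes of controls. Of these barcodes 10 treated and 1 control held Cd5l. The 29 treated members carried 448 gate UMIs, so the condition on Cd3 left out treated barcodes rich in the same genes: they numbered 2, 5, 5 and 1 in treated samples 1 to 4, and 3 of them were scored as doublets.

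In 6 of 56 sets of 4 treated values, 1 sample stood apart from the other three by more than Dixon's limit at 95%, which chance alone passes in about 1 set in 20. The erythroid list summed to 18690 CPM in members of treated 2 against at most 146 CPM in the others, and 1 cell held 1183 of its UMIs. The NK and ILC1 list was at 619 CPM in treated 4 and 293 to 338 CPM in the others. The stellate and fibroblast list was at 52.0 CPM in treated 1 and at 0 in the others. The monocyte origin list was at 2341 CPM in treated 3, below 4954 to 5248 CPM. The inflammatory list was at 1084 CPM in treated 4, below 4565 to 5067 CPM, and Sdc3 at 851 CPM in treated 4, below 1232 to 1299 CPM.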

How the results depend on the processing

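The share of passing barcodes reversed when barcodes under 2000 UMIs were left out and the rest thinned to 2000. It was then 0.00514 percentage points higher in treated samples, against 0.117 lower as reported. With stricter cells (500 genes, 10% mitochondrial UMIs) the treated mean was lower by a difference of -0.133 points of barcodes and higher by 14.4 points of C1q macrophages, both past an exact permutation adjusted p of 0.05 (0.0286). Leaving out each sample gave -0.168 to -0.0607 and 12.8 to 17.5 points. Exchanging labels within replicate numbers 1 to 3 (replicate block, treated 4 left out) gave -0.106 points (exact p = 0.5) and 17.5 points (exact p = 0.25, the smallest possible). Same-numbered samples correlated at -0.0611 to 0.01 in the deviations of their other C1q macrophages from the group means. That gave no sign that the numbers pair the samples. With 25 to 43 such cells in a treated sample it cannot exclude a pairing.

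Called genes in the class comparison, 69 as reported, were 178 with no filter on low counts, 131 with 10 cells per sample (controls 1 and 3), 305 with a gate of 2 UMIs, 263 with cells of 3000 to 20000 UMIs, 149 without tumour marker barcodes, 43 with doublets removed, 18 with summed libraries thinned (336 genes tested) and 0 with no sample block, where 140 genes had an unadjusted p under 0.05. Leaving out each sample gave 39 to 100; without control 1 it was 45, without treated 1, 3 and 4 it was 43, 41 and 39. Of 704 refits of 40 named genes none changed direction and 177 lost the call. Fits between groups, and of the difference of effects, gave no value under any gate. Depth limits these results: 29 treated members held 161792 UMIs in all.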
